A study of Mus musculus with 23 samples.

Results

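The cells described here are the bone marrow (BM) barcodes that carried transcripts of hematopoietic stem cell genes and passed bars on genes of other lineages. They were selected on 5 stem cell genes, Hlf, Mecom, Procr, Fgd5 and Mllt3. A barcode entered the gate when at least 2 of these genes had at least 1 unique molecular identifier (UMI, 1 captured transcript). It also had to hold at least 500 genes, at most 10% mitochondrial UMIs, no UMI of Klf1 (erythroid), Elane (granulocyte progenitors) or Cd79a (B cells), and less than 5% of its UMIs from S100a8 and S100a9 (neutrophils). The gate held 898 cells of 69444 BM barcodes that passed the limits on genes and mitochondrial UMIs, and of 139967 expression barcodes in the series. Levels of the genes that chose the cells are given as a description and support no comparison.

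BM was taken at 2 months of age from mice labelled C57BL/6 (C57BL/6N in the methods) of 3 Stat5b genotypes, wild type (WT), Y665H and Y665F, with 2 libraries each. Y665H mice were made with an adenine base editor and Y665F mice with Cas9 and a donor oligonucleotide, and both carried the change in their own Stat5b gene in every cell type. The labels give no zygosity for BM, name no sort of the cells, and do not say whether the 2 libraries of a genotype came from separate animals. The paper describes homozygous mice of all 3 genotypes in its bone marrow section, without giving the zygosity of these libraries. Xist and Y-linked transcripts (values below) differed between the 2 libraries of each genotype as between females and males, so these came from different animals. The p-values measure a spread between libraries that includes this difference. Animals of all 3 genotypes were otherwise untreated.

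Cytokine receptors act through Janus kinases on the transcription factor STAT5B. Its phosphorylated form pairs through its SH2 domain, in which the mutated tyrosine Y665 lies, and binds DNA in the nucleus. Hematopoietic stem cells are rare, mostly quiescent cells that renew themselves and give rise to all blood lineages, and cytokine signals act on them partly through STAT5.

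The sequences that set the genotypes apart are those of the edited codon. The guide was the same for both mutants, with its protospacer-adjacent motif in capitals (GRCm38, chr11:100787287-100787309, plus strand). The reference and the Y665F donor are shown around the Y665 codon in capitals, in exon 16 of 19 of transcript Stat5b-201, as the coding (minus) strand (chr11:100787279-100787305). Of the 133 bases of the donor, 2 differed from the reference transcript, both in this codon. The methods also name a silent C-to-G change, which this comparison did not find in the donor as listed.
Guide: tgaggtaattcaggtcccccAGG
Reference: ggggacctgaatTACctcatatatgtg
Y665F donor: ggggacctgaatTTTctcatatatgtg

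The libraries were uneven. Passing barcodes numbered 9254 and 10510 in Y665H, 3866 and 10289 in WT, and 16814 and 18711 in Y665F, and the lowest barcode held 1179 UMIs in Y665F replicate 2 against 500 in the other 5 libraries. Xist stood at 231, 1246 and 802 CPM (UMI counts scaled to a common library total) in the gate of replicate 1 of Y665H, WT and Y665F and at 0 in every replicate 2, where Y-linked genes stood between 63.0 and 115 CPM. Replicate 1 thus had the transcripts of females, while the methods of the study name male mice. Hemoglobin transcripts took at most 0.0121% of UMIs outside the gate, and S100a8 and S100a9 at most 0.222%, so the mature red cell and neutrophil markers that unsorted marrow would hold were nearly absent. In every pair of libraries between 80 and 476 barcode sequences occurred in both, 2 of them gated in both.

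The stem cell label was checked against stem cell genes that the rule did not use. The list holds 25 genes with Kit and 24 without it, and Kit is left out of the sums here because it chose 1 of the sets compared. The summed level of the 24 genes in the gate was 1736 and 1463 CPM in Y665H, 3122 and 1960.5 CPM in WT, and 2065 and 1846 CPM in Y665F. In all other passing barcodes of the same libraries it was 616 and 594 CPM, 823 and 743 CPM, and 1284 and 1473 CPM. The gate was above the rest of its own library in 6 of 6 libraries, most in WT replicate 1 and least in Y665F replicate 2. Barcodes outside the gate with at least 1 Kit UMI, no UMI of the 5 counted genes and the same bars (5301 cells) had sums of 763 and 647 CPM in Y665H, 1246 and 838 CPM in WT, and 1442 and 1575 CPM in Y665F. The gate was above these Kit-positive cells in 6 of 6 libraries too, again least in Y665F replicate 2. With Kit counted, the Kit-positive cells of Y665F replicate 2 stood at 2123 CPM and the gate at 2097 CPM.

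**Figure D1:**
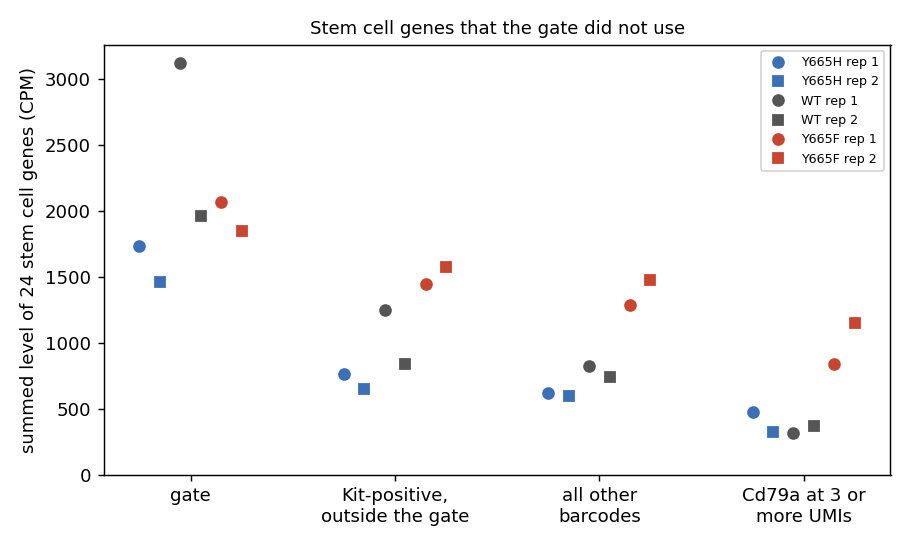
Summed level of 24 stem cell genes outside the gating rule, without Kit (CPM, y axis), in 4 sets of barcodes (x axis), with 1 point per library, circles for replicate 1 and squares for replicate 2. The gate stands above the other sets of its own library, from 1463 to 3122 CPM, with the smallest gap to Kit-positive cells in Y665F replicate 2 (1846 and 1575 CPM).

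Among single genes of that list, Meis1, a homeobox partner of HOX proteins, stood at 102 and 87.3 CPM in Y665H, 166 and 70.9 CPM in WT, and 124 and 134 CPM in Y665F in the gate. Outside it Meis1 was at 14 and 19.1 CPM, 32.6 and 21.1 CPM, and 72.8 and 96.7 CPM. Ly6a, which encodes the stem cell surface antigen Sca-1, was at 166 and 175 CPM, 242 and 126 CPM, and 245 and 100 CPM in the gate, and between 14.7 and 77.3 CPM outside. Both genes were higher in the gate than outside it in 6 of 6 libraries. Slamf1, a surface marker of long-term stem cells, was near 0 everywhere, with 1 UMI in Y665H, 3 in WT and 15 in Y665F over all gated cells, and could not be used.

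Markers of other lineages differed in level in the gate. Erythroid genes (12) summed to between 945 and 5208 CPM and stood above the 24 stem cell genes in both Y665H libraries and in WT replicate 2. Granulocyte-monocyte progenitor genes (12) summed to between 997 and 1793 CPM and stood above the 24 stem cell genes in Y665H replicate 2 (1495 against 1463 CPM). Multipotent and lymphoid-primed progenitor genes (12) summed to between 569 and 962 CPM in the gate and to between 477 and 763 CPM outside it. In WT replicate 2 and both Y665F libraries their sum in the gate was below that outside. Endothelial markers (6) summed to between 118 and 382 CPM and plasmacytoid dendritic cell markers (6) to between 213 and 312 CPM. For natural killer cell markers (6) the sums were between 132 and 197 CPM and for monocyte markers (6) between 57.4 and 138 CPM. Other lists were low. T cell markers summed to at most 20.8 CPM (3 of 6 at 0 in all libraries) and stromal markers to at most 7.87 CPM (4 of 6 at 0). B cell markers ranged from 36.9 to 218 CPM (1 of 6 at 0). Neutrophil markers summed to 9.23 and 0 CPM in Y665H, 20.8 and 0 CPM in WT, and 223 and 107 CPM in Y665F, with none of the 6 at 0 in all libraries. Outside the gate the same 6 genes summed to 102 and 56.5 CPM, 6.60 and 75.0 CPM, and 1352 and 475 CPM. Neutrophil transcripts therefore moved with Y665F inside and outside the gate, and their part in the results below was not tested. S100a8 and S100a9, which the rule barred above 5% of UMIs, stood at 169 and 92.1 CPM and at 148 and 109 CPM in the Y665F gate.

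The first question was how many marrow barcodes met the rule in each genotype. The gate held 33 of 9254 and 41 of 10510 barcodes in Y665H, or 0.357% and 0.39%. It held 49 of 3866 and 60 of 10289 in WT, or 1.27% and 0.583%. In Y665F it held 369 of 16814 and 346 of 18711, or 2.19% and 1.85%. All 6 libraries lay in the order Y665H, WT, Y665F, with means of 0.373% ± 0.0237, 0.925% ± 0.484 and 2.02% ± 0.244 (SD, n = 2 each), and an exact two-sided permutation test of that order gave p = 0.0222, the smallest the 6 libraries allow. The order is that of STAT5B activity in the study. The paper had already reported more long-term stem cells in Y665F from single-cell sequencing of marrow. Rule and test were chosen with earlier results of these data known, so this p is no independent support. Pairs of genotypes, 2 libraries against 2, cannot go below p = 0.33 in an exact permutation test and were not tested. The Y665F mean was 2.19 times that of WT, and 1.6 times without WT replicate 2 or 3.47 times without WT replicate 1. Y665F replicate 1 had a 95% exact binomial interval of 1.98% to 2.43% and WT replicate 1 one of 0.939% to 1.67%, which cover counting error only.

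The order was the same at matched depth. With every barcode thinned to 1500 UMIs and shallower barcodes left out, the means were 0.146%, 0.583% and 1.24%, again with all libraries in order (p = 0.0222, exact permutation). The fold of Y665F over WT went from 1.62 with Hlf left out of the rule to 2.93 with Mllt3 left out. With none of the barred genes applied, the shares were 1.09% and 0.599% in Y665H, 2.35% and 0.952% in WT, and 5.01% and 5.26% in Y665F, where Y665H replicate 1 passed WT replicate 2 (p = 0.0667, exact permutation). Of the 474 and 639 Y665F barcodes with at least 2 counted genes that a bar removed, 449 and 597 held Elane.

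The same count in barcodes that should lack stem cell genes gives the background. Among barcodes with at least 3 Cd79a UMIs, 1 of 76 and 0 of 52 in Y665H, 0 of 45 and 1 of 143 in WT, and 5 of 257 and 10 of 48 in Y665F held at least 2 of the 5 genes. For Y665F these are 1.95% (95% exact binomial interval 0.635% to 4.48%) and 20.8% (10.5% to 35.0%), at median depths of 1720 and 3255 UMIs against 2741 and 2374.5 UMIs in the gate. With a limit of 3 counts, 0 of 52 allows a share of up to 5.77% and 0 of 45 one of up to 6.67%, where the exact binomial intervals end at 6.85% and 7.87%. In Y665F replicate 1 the whole interval lay below the unbarred share of the marrow (5.01%), and in replicate 2 it lay above that share (5.26%). In the other 4 libraries, with 0 or 1 such barcode each, the intervals or limits took in the unbarred share, so the count was not separated from this background there. B cell markers summed to 684 CPM in those barcodes of Y665F replicate 2 and to between 1776 and 3833 CPM in the other 5 libraries. Barcodes with at least 20% of UMIs from S100a8 and S100a9 occurred in Y665F alone, where 0 of 96 and 0 of 10 held 2 genes, which allows shares of up to 3.12% and 30% by the limit of 3 counts. Barcodes of other barred lineages held the 5 genes too. Among those with at least 3 Elane UMIs the share with at least 2 genes was 4.99% (95% exact binomial interval 4.03% to 6.11%) and 7.2% (6.18% to 8.32%) in Y665F and between 0.12% and 1.31% in the other 4 libraries. Among those with at least 3 Klf1 UMIs it was 7.14% (2.92% to 14.2%) and 16.7% (3.58% to 41.4%) in Y665F and at most 1.35% elsewhere. In Y665F replicate 1 these intervals took in the unbarred share of the marrow, so it was not separated from these barcodes. That share includes them, with 89 of its 843 barcodes holding at least 3 Elane UMIs, so overlap is partly built in. The gate share of 2.19% in Y665F replicate 1, which leaves them out, was not compared. The Cd79a barcodes of that library had a median of 1720 UMIs against 2566 in all its passing barcodes. Depth was not matched, so their lower share does not separate the marrow from them. They also held 3680 CPM of basophil, mast and eosinophil genes and 849 CPM of neutrophil markers. In the other 5 libraries these were at most 76.7 and 86.3 CPM. The S100a8 and S100a9 barcodes, at a median of 2603 UMIs, stayed below the unbarred share. The gate shares of Y665F are therefore not read as shares of stem cells.

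**Figure D2:**
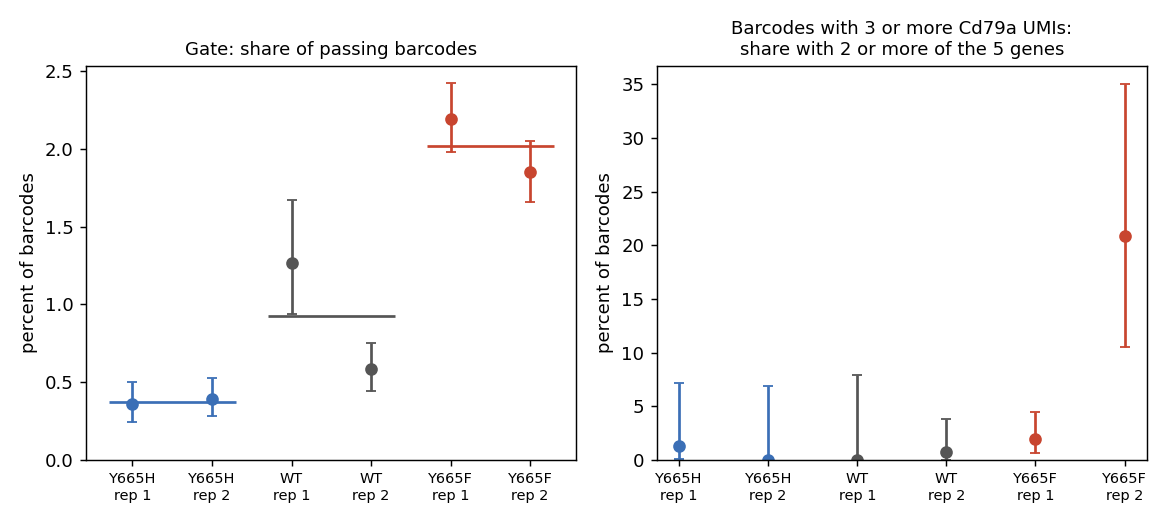
Left, gated cells as a percentage of passing barcodes in each library (points, with 95% exact binomial intervals, lines for the genotype means of 0.373%, 0.925% and 2.02%). Right, barcodes with at least 3 Cd79a UMIs that held at least 2 of the 5 counted genes (percent, same intervals), where Y665F replicate 2 stands at 20.8% and the other libraries at 1.95% or less.

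Of the counted genes, Hlf and Mllt3 were the most frequent in the marrow as a whole. A UMI of Hlf, a transcription factor of stem cells, was seen in 4.42% and 3.79% of passing barcodes in Y665H, 6.67% and 5.31% in WT, and 16.7% and 23.2% in Y665F. For Mllt3, a chromatin reader, the shares were 15.7% and 6.09%, 14.7% and 7.71%, and 9.47% and 7.83%, so Mllt3 was above Hlf in Y665H and WT and below it in Y665F. Among gated cells the pair Hlf and Mllt3 was the most frequent combination (35.1% of 898), followed by Hlf with Mecom (26.3%) and Hlf with Procr (11.1%). Cells just inside the rule, with exactly 2 genes, numbered 808, 84 others held 3 and 6 held 4. Barcodes just outside it, with 1 gene and the same bars, numbered between 243 and 1980 per library.

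Inside the gate the counted genes stood at levels that the rule itself sets. Hlf was at 296 and 426 CPM in Y665H, 429 and 425 CPM in WT, and 377 and 416 CPM in Y665F. Procr, the endothelial protein C receptor, was at 46.2 and 109 CPM, 62.3 and 213 CPM, and 58.2 and 55.5 CPM. Mecom, a zinc finger factor that stem cells need, was at 83.1 and 109 CPM, 132 and 181 CPM, and 136 and 177 CPM. Surface genes were sparse at matched depth. With gated cells thinned to 1500 UMIs, Kit was seen in 11.1% and 4.17% in Y665H, 35.3% and 5.13% in WT, and 22.3% and 31.5% in Y665F. The 2 WT libraries thus lay above and below both Y665F libraries. The unthinned shares were 21.2% and 24.4%, 44.9% and 13.3%, and 38.2% and 48.6%.

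Expression was then compared between genotypes with UMIs summed over the gated cells of each library, in 1 edgeR quasi-likelihood model of the 6 libraries. The sums were 108287 and 91612 UMIs in Y665H, 144461 and 127010 in WT, and 1289704 and 1009419 in Y665F, so that values of Y665H and WT rest on far fewer UMIs. Calls needed p under 0.05 after Benjamini-Hochberg adjustment over the 2530 genes tested, together with a log2 fold change beyond 1 in either direction.

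In Y665F against WT, 21 of 2530 genes were called (0.83%), 8 higher (0.316%) and 13 lower (0.514%). S100a8 and S100a9 are 2 of the 8 and were barred by the rule, so they are no result. The median log2 fold change over all genes was -0.03. With upper-quartile factors in place of TMM the split was 9 higher and 9 lower. Leaving out 1 library gave 89 calls without WT replicate 1, 86 without WT replicate 2, 36 and 35 without Y665H replicate 1 or 2, and 5 without Y665F replicate 2. With the replicate number as a block it was 45. The largest rise among named genes was that of Pf4 (ENSMUSG00000029373, GRCm38 chr5:90772435-90773383), platelet factor 4, a chemokine of megakaryocytes and platelets. Pf4 was at 34.6 and 102 CPM in WT and 469 and 638 CPM in Y665F (log2 fold change 3.18, SE 0.445, edgeR adjusted p = 0.00274). It was 2.58 without WT replicate 1 and 4.27 without WT replicate 2. The filter on low counts asked for about 73.7 CPM in 2 libraries. Pf4 passed it only with the Y665F libraries and Il12a only with WT, so both entered through the genotype in which they were higher and their tests are no independent support. The other 15 named genes of this comparison passed in the remaining libraries alone. Y665H lay with WT at 36.9 and 65.5 CPM. Gated cells with a Pf4 UMI made up 21.4% and 51.4% in Y665F against 8.16% and 15% in WT.

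Pf4 was as high outside the gate. In all other passing barcodes it stood at 76.5 and 143 CPM in WT and 512 and 691 CPM in Y665F, and in barcodes with at least 3 Cd79a UMIs at 60 and 7.4 CPM and at 107 and 374 CPM. Its rise was thus not limited to gated cells. Cd79a barcodes carried Pf4 in both genotypes, more in Y665F than in WT. Those of Y665F also held transcripts of other lineages or fewer B cell markers (values above). Of 12 megakaryocyte genes 2 were tested, Pf4 and Cd9, a tetraspanin (log2 fold change 0.55, edgeR adjusted p = 0.561). The 12 genes summed to 270 and 268 CPM in the WT gate and 817 and 945 CPM in that of Y665F. Itga2b, the platelet integrin CD41, was not tested and was at 20.8 and 0 CPM in WT and 59.7 and 90.2 CPM in Y665F. Leaving out gated cells with Pf4, which removes 51.4% of those of Y665F replicate 2, lowered the number of called genes from 21 to 10, with Rps9 at 1.51 and Aldoa at -1.85 on the log2 scale.

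The other named genes that rose were Rps9, Rps12, Rplp1, Dynll1 and Plac8. Rps9 (chr7:3703993-3706897), a protein of the small ribosomal subunit, was at 1544 and 1331 CPM in WT and 3456 and 4305 CPM in Y665F (log2 fold change 1.57, SE 0.257, edgeR adjusted p = 0.00678). Rps12 and Rplp1, of the small and large subunit, rose by 1.41 and 1.08 (edgeR adjusted p = 0.0177 and 0.0432). Processed pseudogenes near-identical to these genes could share their reads, so their counts are given as uncertain. All ribosomal protein genes took 23.2% and 29.5% of gated UMIs in WT and 32.3% and 30.6% in Y665F, with WT replicate 1 apart, where Malat1 took 1.67% against at most 0.946% in the other 5 libraries. Their part in these rises was not tested. Dynll1, a dynein light chain, rose by 1.63 (edgeR adjusted p = 0.0387) from 138 and 102 CPM to 305 and 376 CPM. Plac8, a small protein abundant in myeloid cells and progenitors, rose by 1.46 (edgeR adjusted p = 0.0293) from 540 and 646 CPM to 1284 and 1683 CPM.

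Named genes that were lower in Y665F than in WT numbered 11. With libraries thinned to equal totals, an alternative chosen after seeing the data, 0 genes were called lower. Aldoa (chr7:126795234-126800751), the glycolytic enzyme aldolase A, was at 644 and 591 CPM in WT and 207 and 98.1 CPM in Y665F (log2 fold change -1.87, SE 0.385, edgeR adjusted p = 0.0293). Gapdh, another glycolytic enzyme, was lower by a log2 change of -1.32 (edgeR adjusted p = 0.0412) and Actg1, a cytoskeletal actin, by -1.28 (edgeR adjusted p = 0.0417). Eif5a (chr11:69916714-69921958), a translation factor, was at 1045 and 1535 CPM in WT and 532 and 380 CPM in Y665F (-1.36, edgeR adjusted p = 0.0412).

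Ier2 (chr8:84661331-84662852), an immediate early gene that stimuli induce within minutes, was at 526 and 811 CPM in WT and 174 and 139 CPM in Y665F (log2 fold change -1.95, SE 0.368, edgeR adjusted p = 0.0192). Il12a, a subunit of interleukin 12, showed the largest fall, -2.49 (edgeR adjusted p = 0.0293), at 138 and 70.9 CPM in WT and 18.6 and 14.9 CPM in Y665F. Cd81, a tetraspanin of the cell surface, fell by 1.82, Nutf2, a nuclear transport factor, by 1.70 and Cirbp, a cold-inducible RNA-binding protein, by 1.65 on the log2 scale (edgeR adjusted p = 0.0365, 0.0412 and 0.0412). Without WT replicate 2 Nutf2 was at -0.84 and Cirbp at -0.98 (edgeR adjusted p = 0.309 and 0.131). Gnb2, a G protein subunit, and Tecr, an enzyme of fatty acid elongation, each fell by 1.59 (edgeR adjusted p = 0.0293 for both). Il12a rests on 29 UMIs in WT and 39 in Y665F over all gated cells, and the other 6 genes of this paragraph on at least 64.

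In Kit-positive cells outside the gate edgeR called 336 of 9485 genes (3.54%) between Y665F and WT, 125 higher (1.32%) and 211 lower (2.22%). Of the 6 named rises 1 was called there, and of the 11 named falls 8. These cells came from the same libraries in which the named genes were chosen, so the counts are no independent support. Eif5a was at 1475 and 2048 CPM in WT and 582 and 378 CPM in Y665F among Kit-positive cells outside the gate, and at 1823 and 2344 CPM and 610 and 572 CPM among Cd79a barcodes. Aldoa was at 542 and 621 CPM and 165 and 88.3 CPM in Kit-positive cells. Rps9 was at 1766 and 1306 CPM and 3235 and 3908 CPM there. RNA quality measures also moved with Y665F, since Gm42418, which overlaps ribosomal RNA sequence, took 3.68% and 3.55% of gated UMIs in Y665F, 2.35% and 2.71% in WT, and 1.87% and 2.05% in Y665H. Their part in the fold changes was not tested.

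**Figure D3:**
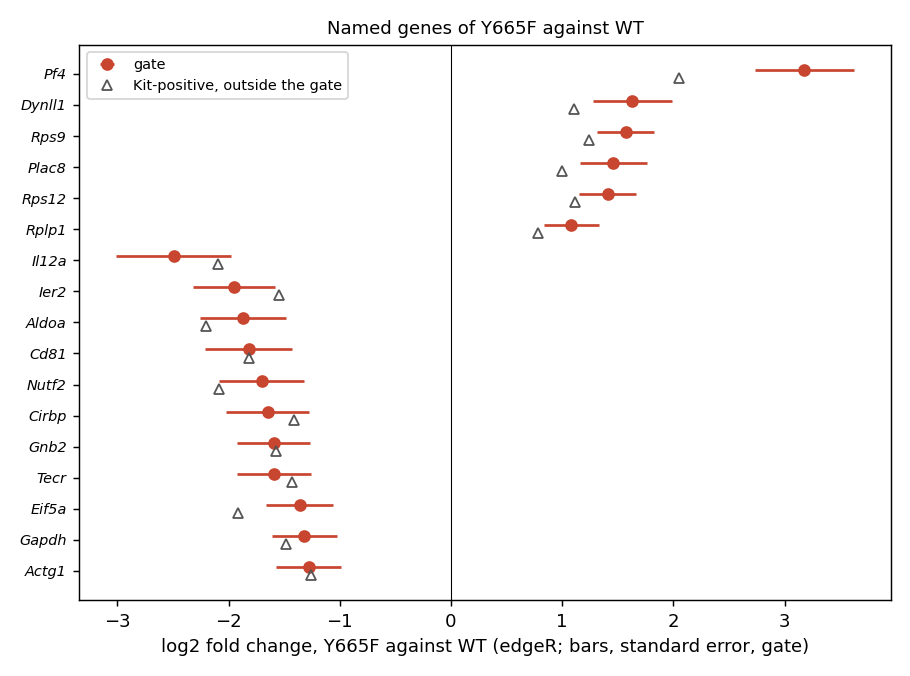
Log2 fold change of Y665F against WT (x axis) for the 17 named genes (y axis), in the gate (filled circles, with standard errors) and in Kit-positive cells outside it (open triangles, no error shown). Pf4 stands at 3.18 in the gate and 2.05 in Kit-positive cells, and Aldoa at -1.87 and -2.21.

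Between the 2 mutants 74 of 2530 genes were called (2.92%), 28 higher in Y665F (1.11%) and 46 lower (1.82%). S100a8 and S100a9, which the rule barred, are 2 of the 28 and are no result here either. This comparison shares the Y665F libraries with the one against WT. Upper-quartile factors in place of TMM moved the split to 20 higher and 10 lower, and DESeq2 gave 11 and 30. The number of calls was 286 without WT replicate 1, 269 without WT replicate 2, 14 and 43 without Y665H replicate 1 or 2, and 15 without Y665F replicate 2. It was 195 with the replicate number as a block. Socs2 (ENSMUSG00000020027, chr10:95385362-95417180), a feedback inhibitor of cytokine signalling that STAT5 induces, had the largest log2 fold change among named genes. Socs2 was at 18.5 and 0 CPM in Y665H, 13.8 and 78.7 CPM in WT, and 231 and 126 CPM in Y665F (log2 fold change 4.27, SE 0.845, edgeR adjusted p = 0.014). Y665F lay above both other genotypes, and the Y665H value rests on 2 UMIs, which puts the ratio at 18.5 (95% exact counting interval 5.08 to 153). Without Y665H replicate 2 it was 3.36, and without replicate 1 the remaining Y665H library held 0 UMIs, so that the fitted 9.60 depends on the prior count. Against WT the Socs2 difference was 2.14 (edgeR adjusted p = 0.0978) and was not called.

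**Figure D4:**
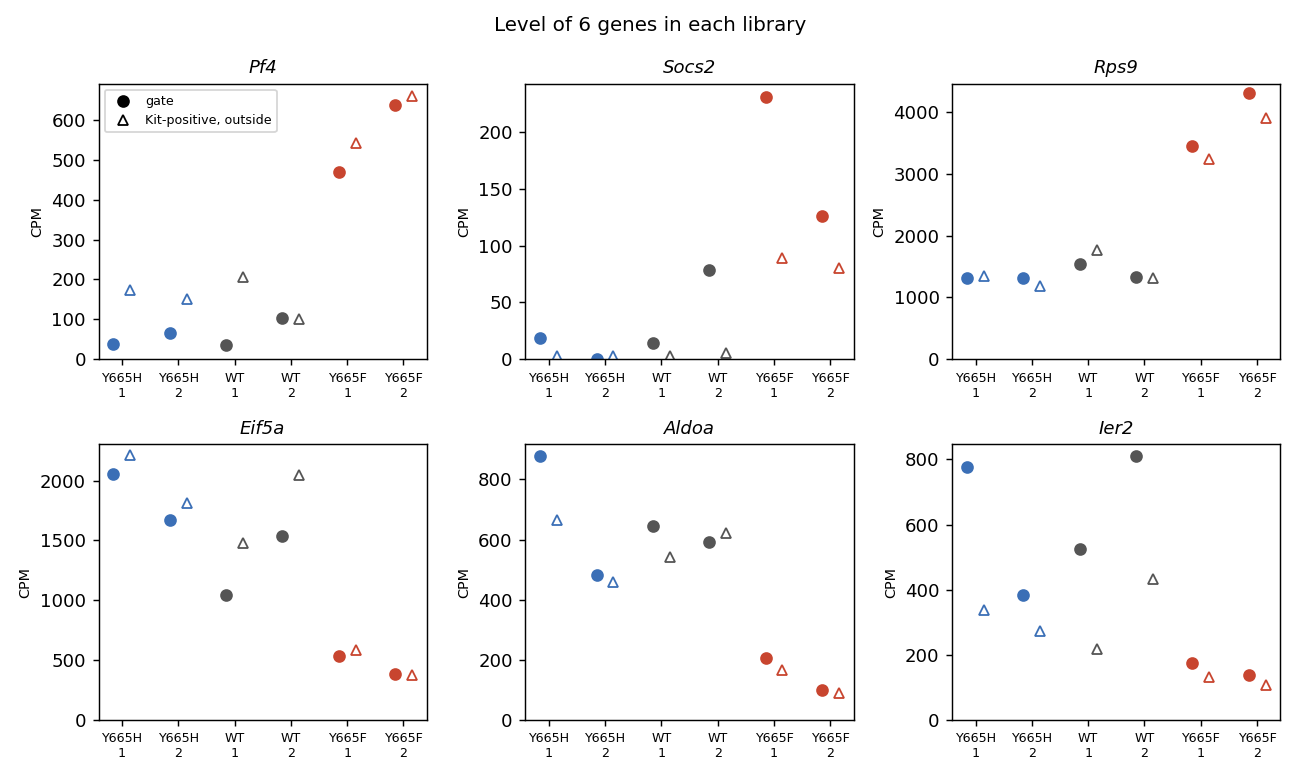
Level (CPM, y axis) of 6 genes in each library (x axis, genotype and replicate number), in gated cells (filled circles) and in Kit-positive cells outside the gate (open triangles). In Y665F both sets stand apart from WT and Y665H for Pf4, Rps9, Eif5a, Aldoa and Ier2, and Socs2 stands at 231 and 126 CPM in the gate.

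Named genes that were higher in Y665F than in Y665H also included Cdk6, a G1 kinase. It was at 102 and 109 CPM in Y665H against 324 and 446 CPM in Y665F (log2 fold change 2.01, edgeR adjusted p = 0.038), but WT libraries lay at 332 and 94.5 CPM and spanned both. Kmt2a, the histone methyltransferase MLL1, differed by 2.61 (edgeR adjusted p = 0.0432). WT replicate 1 was as high as Y665F, with 194 CPM of Kmt2a, and WT replicate 2 was lower, with 47.2 CPM. Serpina3g, a serine protease inhibitor, differed by 2.32 (edgeR adjusted p = 0.038), Hnrnpa0, an RNA-binding protein, by 1.95 (0.0312) and Diaph1, an actin nucleator, by 2.18 (0.0276). Adnp and Tnks2 (3.13 and 2.97, edgeR adjusted p = 0.0301 and 0.038) rest on 3 UMIs each in Y665H, with ratios of 7.91 (95% exact counting interval 2.68 to 38.6) and 7.01 (2.37 to 34.2). mt-Atp8 of the mitochondrial genome and Zfp207, a spindle protein, differed by 2.98 and 1.88 (edgeR adjusted p = 0.0111 and 0.041), and Pf4 by 3.60 (0.00197). In Y665H mt-Atp8 rests on 4 UMIs, with a ratio of 7.17 (95% exact counting interval 2.78 to 26.5), and Kmt2a on 5, with one of 5.53 (2.34 to 17.1). Of the 12 named rises 8, with Socs2, Pf4, Adnp, Tnks2, mt-Atp8, Kmt2a and Serpina3g among them, passed the filter on low counts only with the Y665F libraries and so had to differ from genotypes under it. Their tests are no independent support, whereas Cdk6, Hnrnpa0, Diaph1 and Zfp207 passed without Y665F. In Y665H Cdk6 rests on 21 UMIs, Hnrnpa0 on 14, Diaph1 on 8 and Zfp207 on 9. The ratios of Diaph1 and Zfp207 had 95% exact counting intervals of 2.09 to 9.69 and 1.73 to 7.33.

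Named genes that were lower in Y665F than in Y665H numbered 12. Car1 (chr3:14766216-14808368), carbonic anhydrase 1, an early erythroid gene, was at 3611 and 1834 CPM in Y665H, 263 and 1724 CPM in WT, and 263 and 393 CPM in Y665F (log2 fold change -2.91, SE 0.545, edgeR adjusted p = 0.0111). Both Y665H libraries were above all others, and WT replicate 1 was as low as Y665F. Outside the gate Car1 was at 5340 and 3975 CPM in Y665H, 3645 and 4584 CPM in WT, and 622 and 372 CPM in Y665F. Rhd, an erythroid blood group protein, was at 73.9 and 76.4 CPM in Y665H against 4.65 and 12.9 CPM in Y665F (-2.97, edgeR adjusted p = 0.0388). Rhd rests on 15 UMIs in Y665H and passed the filter on low counts only there, so its test is no independent support. The 12 erythroid genes, with 3 tested and 1 called beside 2.92% of all genes, summed to 5208 and 3460 CPM, 1156 and 3425 CPM, and 945 and 1233 CPM in the gate. Klf1-positive cells were barred. The same genes summed to between 6282 and 8845 CPM outside the gate in Y665H and WT, and in Cd79a barcodes, which should lack them, to 2826 and 2635 CPM in Y665H, 510 and 2036 CPM in WT, and 799 and 1237 CPM in Y665F. The part of free RNA in the gate's sums was not tested.

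Rrm2, a subunit of ribonucleotide reductase, was at 175 and 175 CPM in Y665H, 55.4 and 39.4 CPM in WT, and 23.3 and 31.7 CPM in Y665F (log2 fold change -2.53, edgeR adjusted p = 0.0076). Among 12 tested of 15 S phase genes it alone was called, where 2.92% of all genes were, and the list's median log2 difference was 0.04 beside -0.01 over all genes. Cd74, the invariant chain of MHC class II, was lower by a log2 change of -2.27 (edgeR adjusted p = 0.0453), from 942 and 229 CPM to 158 and 62.4 CPM, with Y665H replicate 1 far above the other libraries and a log2 change of -0.94 without it (edgeR adjusted p = 0.556). Eif5a, Nutf2, Cd81 and Aldoa differed by -1.89, -2.18, -2.10 and -2.01 (edgeR adjusted p = 0.00613, 0.0076, 0.0111 and 0.0123), and the comparison against WT, with the same Y665F libraries, gave its values for them above. Bud23, Ppil1, Gltp and Uchl3, which act in ribosome assembly, splicing, glycolipid transfer and ubiquitin removal, differed by between -2.18 and -1.83 (edgeR adjusted p between 0.0108 and 0.038). Rhd, Rrm2, Bud23 and Ppil1 passed the filter on low counts only with the Y665H libraries, in which they were higher. Their tests, and the call of Rrm2 among S phase genes, are no independent support. The other 8 named falls passed without the Y665H libraries.

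Y665H against WT gave 0 called genes of 2530 (0%) by edgeR, with 167 at an unadjusted p under 0.05. DESeq2 also called 0, with 80 under that p. With the replicate number as a block, which goes with Xist and Y-linked transcripts in each genotype, edgeR called 6. With both WT libraries the smallest adjusted p of any listed gene was 0.676, and without WT replicate 2 the number called was 113. WT replicate 1 differed from WT replicate 2 in many of the genes named here, as the values of Car1, Cdk6 and Kmt2a show. That 0 genes were called without the block does not show that Y665H and WT were alike.

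Of the 25 stem cell genes outside the rule 10 were tested and 0 called in any comparison by edgeR. Over all genes 0.83% were called in Y665F against WT, 0% in Y665H against WT and 2.92% in Y665F against Y665H. With 10 genes tested, 0 calls is near those shares and is no result about stem cell genes. Their median log2 fold change was 0.00 in Y665F against WT, -0.47 in Y665H against WT and 0.49 in Y665F against Y665H, beside -0.03, -0.01 and -0.01 over all genes. Angpt1, a ligand of the Tek receptor, was at 157 and 196 CPM in Y665H, 658 and 236 CPM in WT, and 209 and 245 CPM in the gate of Y665F. WT replicate 1 was the highest library, and the other 5 lay close together.

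Of 18 STAT5 target genes 6 were tested. Socs2 alone was called, in Y665F against Y665H. It passed the filter on low counts only with the Y665F libraries, so its call and its part in the medians below are no independent support. The median log2 fold change of the 6 was 0.77 in Y665F against WT and 1.22 in Y665F against Y665H, beside -0.03 and -0.01 over all genes, of which 0.83% and 2.92% were called. The 18 genes summed to 619 and 568 CPM in Y665H, 1045 and 551 CPM in WT, and 1284 and 1105 CPM in Y665F, so WT replicate 1 lay next to Y665F. Pim1, a survival kinase, was at 129 and 76.4 CPM in Y665H, 180 and 47.2 CPM in WT, and 290 and 225 CPM in Y665F (log2 fold change 1.29 against WT, edgeR adjusted p = 0.198). Cish, another feedback inhibitor, was not tested and stood at 18.5 and 10.9 CPM, 34.6 and 0 CPM, and 62.0 and 50.5 CPM. Y665F libraries were the highest for both genes. Outside the gate Cish was at 1.71 and 2.34 CPM, 3.17 and 3.28 CPM, and 25.7 and 26.4 CPM, so it was lower there in every library with a value above 0 in the gate.

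The STAT genes themselves were too low to be tested in the gate. Stat5b was at 27.7 and 21.8 CPM in Y665H, 20.8 and 39.4 CPM in WT, and 40.3 and 54.5 CPM in Y665F, from 5, 8 and 107 UMIs per genotype. Stat5a was at 9.23 and 0 CPM, 27.7 and 31.5 CPM, and 31.0 and 52.5 CPM. Counts per gene do not show the edited base. Of 12 JAK and STAT genes 3 were tested and 0 called by edgeR in any comparison, with Jak1 at between 126 and 208 CPM in all libraries. Of 18 cytokine receptors 4 were tested and 0 called. Beside the 0.83%, 0% and 2.92% of all genes called in the 3 comparisons, 0 of so few is no result about either list.

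The counts in lists of cell state are read beside the 0.83% and 2.92% called over all genes. Of 12 immediate early genes 9 were tested, with Ier2 lower in both comparisons of Y665F and Jund, an AP-1 member, higher in Y665F than in Y665H (log2 fold change 1.60, edgeR adjusted p = 0.0453). Their median was -0.22 in Y665F against WT and 0.66 in Y665F against Y665H, so members moved both ways. Of 10 quiescence genes 2 were tested and 0 called. The 10 genes summed to 369 and 229 CPM in Y665H, 969 and 362 CPM in WT, and 540 and 549 CPM in Y665F. Of 16 G2/M genes 5 were tested and 0 called, with sums of 664.9 and 1179 CPM, 491 and 551 CPM, and 655 and 1177 CPM. Replicate 2 was the higher library in each genotype for these mitotic genes.

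For the lists that follow, 0.83% of all genes were called in Y665F against WT, 0% in Y665H against WT and 2.92% in Y665F against Y665H. Few members were tested, so the counts are no result about the lists. Of 12 multipotent and lymphoid-primed progenitor genes 6 were tested and 0 called, with a median of -0.57 in both comparisons against WT. Of 12 granulocyte-monocyte progenitor genes 5 were tested and 0 called, and Mpo, myeloperoxidase, ranged from 55.4 to 379 CPM. Interferon-induced (3 of 16 tested) and heat shock genes (2 of 6 tested) had 0 calls, and no HOX gene of 10 or basophil, mast and eosinophil gene of 10 passed the filter on low counts. Of 5 MHC class II genes 2 were tested and Cd74 was called, in Y665F against Y665H. Of 6 endothelial markers 1 was tested, Egfl7, which was lower in Y665F than in Y665H by a log2 change of -1.68 (edgeR adjusted p = 0.0284), at 259 and 349 CPM in Y665H against 109 and 59.4 CPM in Y665F. Natural killer, plasmacytoid dendritic cell and monocyte markers had 1, 2 and 1 genes tested and 0 called by edgeR.

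Whether a genotype effect differed between the gate and Kit-positive cells of the same libraries was tested as an interaction with library as a block, over 9915 genes. For Y665F against WT, 23 genes were called (0.232%), 13 with the more positive effect in the gate and 10 with the more negative one. With upper-quartile factors the split was 6 and 16, and the number of calls was 9 without WT replicate 1 and 8 and 5 without Y665F replicate 1 or 2. For Y665H against WT, 2 genes were called (0.0202%), Ebf1 and Cd74, and 0 without WT replicate 1, Y665H replicate 1 or Y665F replicate 1. Kit-positive cells were chosen to hold none of the 5 counted genes, so differences in genes linked to those depend in part on that choice.

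Nupr1, a stress-induced nuclear protein, showed the largest difference of effects, -2.86 (SE 0.703, edgeR adjusted p = 0.0183). It was at 76.1 and 23.6 CPM in the WT gate and 40.3 and 8.92 CPM in that of Y665F, against 5.99 and 4.39 CPM and 31.8 and 13.9 CPM in Kit-positive cells. Car1 had an effect more positive in the gate by 1.53 (edgeR adjusted p = 7.83e-14). Kit-positive WT cells held 2116 and 5094 CPM and Kit-positive Y665F cells 708 and 403 CPM. In the gate WT replicate 1 was as low as Y665F and WT replicate 2 was higher (values above). The gap between gate and Kit-positive cells thus differed between libraries of the same genotype. The p-value alone does not show that the genotypes were separated. Among genes of the comparison against WT, Pf4 and Eif5a had effects that differed by 1.26 and 0.62 (edgeR adjusted p = 0.0492 and 0.0377). Pf4 rose in both sets, more in the gate, and its difference was called, with an adjusted p close to the limit. Eif5a fell in both sets, and its difference was below the fold threshold of 1. For Aldoa, Ier2 and Rps9 the differences of 0.39, -0.40 and 0.43 did not pass (edgeR adjusted p = 0.533, 0.504 and 0.292).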

How the data were processed

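The deposited BM files hold raw UMI counts for each gene and barcode, made by the authors in Cell Ranger. The file headers name version 6.0.0, while the submitters' processing notes list Cell Ranger 5.0, Seurat 4.0 and mm10. The methods give GRCm38 and a 5′ kit, the labels a 3′ kit, and no limits on cells are stated. Total depth per library in the gate was 91612 to 1289704 UMIs. The gate's members, the gene lists and the tests were chosen with earlier results of these data known.

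Counts were summed per library over gated cells and fitted with TMM factors in edgeR 4.0.16 (R 4.3.3, limma 3.58.1), with filterByExpr by genotype and the quasi-likelihood test, adjusted by Benjamini-Hochberg. Standard errors are log2 fold changes over the root of their F statistic. Levels are CPM of all UMIs of the cells, untouched by TMM. Shares were tested over all 90 arrangements of the libraries with the Jonckheere-Terpstra statistic. The scripts were tested on simulated data. Doublets, scored with Scrublet in scanpy 1.11.5 (Python 3.11.15) and removed as the top-scoring barcodes in an alternative, were otherwise kept. They were 101 of the 898 gated cells.

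Genes were named where called, with libraries of the 2 genotypes not overlapping, at least 20 CPM in the higher genotype, and among the 12 largest rises or falls. Gate, sex-linked, immunoglobulin, T-cell receptor, hemoglobin and predicted genes were left out. In the interaction the 6 largest were named, and list members were named freely. Some genes that met these rules are not reported here. Jund, Egfl7 and the interactions of Pf4, Eif5a and Car1 came from the lists or other comparisons. Coordinates are from GENCODE vM21 (GRCm38). Replicate numbers were compared by the correlation of deviations from genotype means over genes, which was 0.0823 between Y665H and WT, 0.254 between Y665H and Y665F and -0.0741 between WT and Y665F. This check cannot exclude pairing, because the deviations of Y665H and WT rest on few UMIs. In each genotype replicate 1 held Xist and replicate 2 Y-linked transcripts, and the main model held no term for this difference.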

Additional observations from a re-analysis of the deposited data

Results flagged for a closer look

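For 5 named genes the effect of Y665F against WT differed between the gate and Kit-positive cells outside it, by the test of the difference in effects with library as a block. The log2 differences (gate minus Kit-positive) were -2.86 for Nupr1, 2.65 for Ccl5 (a chemokine of lymphocytes), 2.60 for Cnot2 (a subunit of the deadenylase complex), 2.25 for Ly86 (a partner of RP105) and 2.04 for Spc24 (a kinetochore protein), with edgeR adjusted p between 0.0117 and 0.0187. In the WT gate Ccl5 was at 34.6 and 0 CPM, Cnot2 at 13.8 and 15.7 CPM, Ly86 at 20.8 and 23.6 CPM and Spc24 at 13.8 and 47.2 CPM, which are few UMIs each. Over all 6 genes picked for this comparison, 0 kept the call without WT replicate 1 or without Y665F replicate 1, and 1 kept it without WT replicate 2 or without Y665F replicate 2. Nupr1 was at -1.94 (edgeR adjusted p = 0.734) without WT replicate 1, and Ccl5 at 1.52 (edgeR adjusted p = 0.237) against all other barcodes in place of Kit-positive cells.

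For Y665H against WT the difference was 3.69 for Ebf1, a B-lineage transcription factor (SE 0.834, edgeR adjusted p = 0.0323), and 1.23 for Cd74 (SE 0.266, edgeR adjusted p = 0.0179). Ebf1 was at 36.9 and 142 CPM in the Y665H gate and 20.8 and 0 CPM in that of WT, and at 11.3 and 27.5 CPM and 43.1 and 32.6 CPM in Kit-positive cells. Cd74 was at 942 and 229 CPM and 76.1 and 362 CPM in the gate, where the genotypes overlap. Without WT replicate 1 its difference was -0.45. Both genes lost the call without Y665H replicate 1, WT replicate 1 or Y665F replicate 1, and Ebf1 also without Y665H replicate 2 or WT replicate 2.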

How the results depend on the processing

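The order of the gate share was kept, with the same exact permutation p, in all 11 planned settings with the 6 libraries (number of genes, thinning, mitochondrial limit, doublets, denominator, each counted gene left out) and, chosen after seeing the data, with Elane barred only at 3 or more UMIs. The difference between Y665F and Y665H was 1.65 percentage points. Without any bars it was 4.29 points and the exact permutation p 0.0667. Leaving out each library gave 1.48 to 1.82 points at p = 0.0667, the smallest that 5 libraries allow in that exact permutation test, so these p-values say nothing about stability.

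The number of genes called in Y665F against WT (21) was 34 with no filter on low counts, 8 with at least 3 of the 5 genes, 10 without Pf4 cells and, as an alternative chosen after seeing the data, 3 with libraries thinned to equal totals. Leaving out each library gave 5 to 89. In Y665F against Y665H (74) it was 41 by DESeq2, 30 with upper-quartile factors, 15 with at least 3 genes, 29 without Pf4 cells, 19 with cells thinned to 1500 UMIs, 10 with equal totals and 14 to 286 without 1 library. In Y665H against WT it was 1 with at least 3 genes and 0 to 113 without 1 library. The setting with at least 3 genes held no cell of Y665H replicate 2. The effects of Y665F that differed from Kit-positive cells (23) numbered 275 against all other barcodes and 5 to 30 without 1 library. Those of Y665H (2) numbered 4 with upper-quartile factors and 0 to 3 without 1 library. With the replicate number as a block the calls were 45, 6 and 195 in Y665F against WT, Y665H against WT and Y665F against Y665H. The replicate numbers went with Xist (replicate 1) and Y-linked transcripts (replicate 2). Upper-quartile factors moved the median of all genes to -0.13 in Y665H against WT and 0.13 in Y665F against Y665H. The causes of these changes were not tested.

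Over the planned and added settings, the 17 named genes of Y665F against WT kept their call in 184 of 267 values, and 0 of them in all settings. Of the 17, 16 lost it without Y665F replicate 2 and 14 with equal totals. For the 24 of Y665F against Y665H the call was kept in 246 of 326 values, with Socs2 called in the 12 settings that gave it an adjusted p (not by DESeq2, with at least 3 genes, thinned to 1500 UMIs or at equal totals), and 17 lost it without Y665H replicate 1. The direction of these genes was fixed by choosing genes whose libraries do not overlap. Of the genes whose effect differed from Kit-positive cells, 1 reversed, Cd74 for Y665H, at -0.45 without WT replicate 1, in a range of -0.45 to 3.33 over the libraries left out. Depth limits WT and Y665H most, since their gated sums held between 91612 and 144461 UMIs.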
